A study of Macaca mulatta with 6 samples.

Results

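Ion channel genes were followed in RNA from the blood plasma of rhesus macaques. The genes were chosen by symbol, whatever their counts: potassium channel genes (KCN), voltage-gated sodium channel genes (SCN with a number), voltage-gated calcium channel genes (CACN), hyperpolarization-activated channel genes (HCN), transient receptor potential genes of the TRPA, TRPC, TRPM and TRPV groups, and chloride channel and transporter genes (CLCN). Of the 35432 features in the authors' table of summed counts, 165 had such a symbol. All 165 belonged to the 16712 genes whose symbol was listed once and is that of a protein-coding gene in RefSeq, and these 16712 genes served as the background. A further 5 RefSeq symbols of these families, KCNE1, KCNF1, KCNJ11, KCNK15 and SCN7A, matched no symbol and were not analysed here.

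The plasma came from 2 animals, A and B, and was separated on a gradient into a fraction of extracellular vesicles (EVs, membrane-bound particles released by cells), a lipoprotein fraction and a protein fraction. Proteinase K, RNase and DNase had been applied to the samples of every fraction, and each fraction of each animal gave 1 of the 6 libraries. The labels gave neither the age nor a stress history of either animal, and no untreated plasma was among the libraries. The gene counts used here are those of both EV libraries, 1 per animal, and of 2 columns of sums, also 1 per animal, for which the authors did not name the libraries added.

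Ion channels are membrane proteins that let chosen ions pass when the voltage, a ligand or the temperature changes. A pore-forming subunit makes the conducting path, and auxiliary subunits set its gating and its traffic to the cell surface. Voltage-gated channels carry the electrical signals of neurons and muscle, whereas other members set resting potential or calcium entry in blood cells, vessels and epithelia, so their transcripts in plasma could come from many tissues.

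The total gene count was 10397 in the EV library of animal A, 2842 in that of animal B, 62794 in the summed column of A and 54534 in that of B. A gene with a count of 0 could hold up to 0.0289%, 0.106%, 0.00478% and 0.00550% of these totals. These limits allow 3 counts to a gene with a count of 0, and the intervals here are 95% exact ones. Both are for counting error only, and they are too narrow if PCR copies were counted. Counts were not divided by gene length, so they show how many reads a gene held and not how many transcripts. In plasma RNA the number of cells that contribute and the RNA that each contributes cannot be told apart. Defining markers of platelets (6 genes), T cells (5 genes) and erythroid cells (4 genes with a symbol) were at 0 in all 4 columns. Of the 7 vesicle marker genes, CD9 had 2 counts in each EV library and 3 in each sum, CD81 had 1 in the sum of A, and the other 5 were at 0.

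Most ion channel genes had no count. In the EV libraries 12 of the 165 were detected for animal A and 5 for animal B, which was 7.27% (3.81% to 12.4%) and 3.03% (0.991% to 6.93%), or 5.15% ± 3.0 (SD, n = 2). The same share over the background genes was 4.17% (A) and 1.97% (B). The authors' sums held a count for 47 members in A, 28.5% (21.7% to 36.0%), and 31 in B, 18.8% (13.1% to 25.6%), beside 18.8% and 14.9% of the background genes. The share of members was thus higher than that of the background in each of the 4 columns, but the interval of the members held the background value in 3 of them, all but the sum of A. These intervals treat genes as independent draws. The part that gene length plays in the higher share was not tested, because no lengths of the authors' annotation were used.

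**Figure D1:**
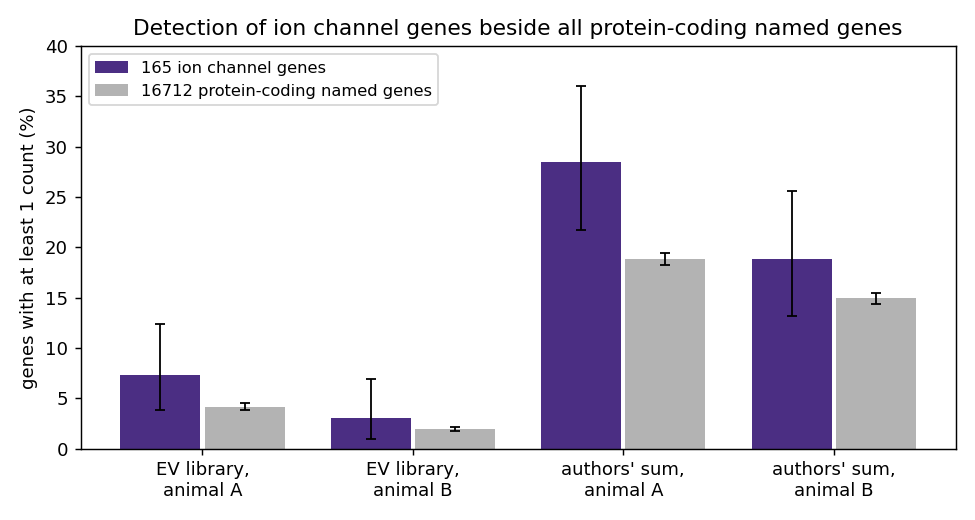
Percent of genes with at least 1 count (vertical axis) in each EV library and each of the authors' sums, for the 165 ion channel genes (purple) and the 16712 protein-coding named genes (grey); black lines are 95% exact intervals. The members stand at 7.27%, 3.03%, 28.5% and 18.8%, and the interval lies wholly above the grey bar in the sum of animal A.

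Both sums had a count for 26 members, 15.8% of the 165, where 11.2% of the background genes had one in both. These 26 were 55.3% of the members detected in the sum of A and 83.9% of those in that of B, beside 59.6% and 75.3% for the background genes. Over both sums 52 members had a count, 31.5% of the 165 beside 22.5% of the background genes, and 113 had none. Few reads stood behind most of the 52: 16 had 1 count over both sums, 16 had 2, and 11 had 5 or more. At a minimum of 10 counts, 3 members were left in the sum of A (1.82%) and 4 in that of B (2.42%), beside 1.41% and 1.16% of the background genes. In the EV libraries 2 members, KCNT1 and CACNA1H, reached 10 counts in A (1.21%, 0.147% to 4.31%). In B 1 did, KCNT1 (0.606%, 0.0153% to 3.33%), and the background shares were 0.227% and 0.0778%. At this minimum the members' interval held the background value in all 4 columns.

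The counts of the family were held by few genes. Members together held 51 counts in the EV library of A, 0.491% of its total (0.365% to 0.644%), and 49 in that of B, 1.72% (1.28% to 2.27%). They held 397 counts in the sum of A, 0.632% (0.572% to 0.697%), and 310 in that of B, 0.568% (0.507% to 0.635%). KCNT1 led in each of the 4 columns, with 51.0% and 87.8% of the members' counts in the EV libraries and 52.9% and 55.8% in the sums. The 3 members with the most counts held 78.4%, 95.9%, 75.8% and 81.0% of the members' counts in the same order of columns.

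**Figure D2:**
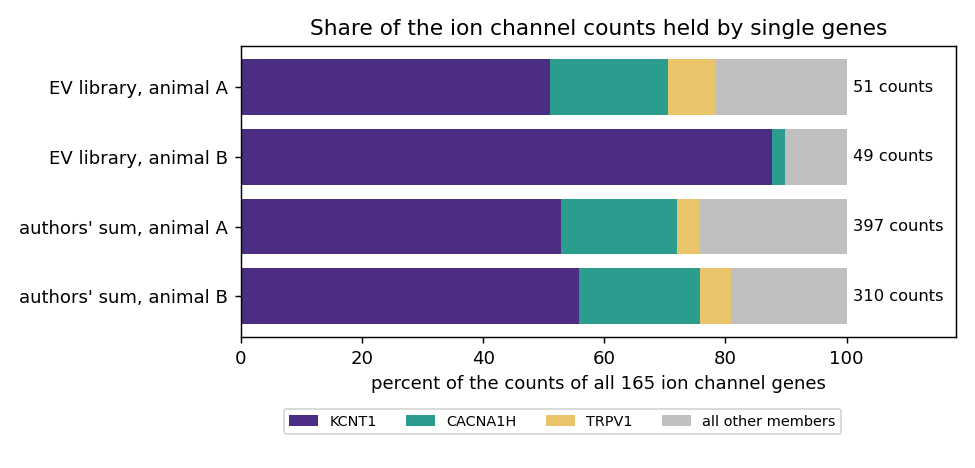
Percent of the counts of all 165 ion channel genes (horizontal axis) held by KCNT1, CACNA1H, TRPV1 and all other members in each EV library and each of the authors' sums, with the number of counts at the right. KCNT1 holds 51.0%, 87.8%, 52.9% and 55.8% from top to bottom.

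Among the pore-forming potassium channel genes, KCNT1 encodes a channel opened by intracellular sodium, known from neurons and from severe epilepsies caused by its variants. KCNT1 (ENSMMUG00000021496) had 26 counts in the EV library of A, 43 in that of B, 210 in the sum of A and 173 in that of B. In each column it had more counts than any other member. Among background genes it was the 17th by count in the EV library of A, the 4th in that of B, the 18th in the sum of A and the 13th in that of B. Of the 8 calcium- or sodium-activated potassium channel genes 2 had a summed count in each animal (25%). The shares over the background genes were 18.8% (A) and 14.9% (B). Besides KCNT1 this was KCNU1, the gene of a sperm potassium channel, with 1 count in the EV library of A and sums of 1 and 2. The close relative KCNT2, the large-conductance channel gene KCNMA1 and the small- and intermediate-conductance genes KCNN1, KCNN2, KCNN3 and KCNN4 were at 0 in all 4 columns.

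KCNT1 also differed between the EV libraries. Its share was 0.250% of the total in A (0.163% to 0.366%) and 1.51% in B (1.10% to 2.03%), 6.05 times as high in B (3.63 to 10.3). The difference compares 2 libraries and not 2 kinds of animal. Of the 45 background genes with at least 10 counts in either EV library, 26.7% had a higher share in B with an interval for the ratio that left out 1, and 51.1% had a higher share in A. The only other member among the 45, CACNA1H, had a ratio of A over B of 2.73 (0.389 to 119), which held 1. The ratio for KCNT1 moved with the scaling. A over B was 0.165 (0.0975 to 0.275) by shares of the total and 0.454 (0.268 to 0.755) with edgeR's TMM scaling. DESeq2's size factors were 1 for both EV libraries, so they left the difference in depth in place and gave the ratio of the unscaled counts, 0.605 (0.357 to 1.01), whose interval held 1. In the sums KCNT1 had shares of 0.334% in A (0.291% to 0.383%) and 0.317% in B (0.272% to 0.368%), a ratio of 1.05 (0.858 to 1.30).

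Voltage-gated potassium channel genes, which repolarize excitable cells, were the largest group with 39 members. A summed count was found for 13 of them in A (33.3%) and 9 in B (23.1%), and for 7 in both. The shares over the background genes were 18.8% in A, 14.9% in B and 11.2% in both. Their counts were low, 28 in all in the sum of A and 18 in that of B. KCNC4, of a fast-repolarizing channel group, led with sums of 4 and 6 and no EV count. KCNQ3 and KCNQ5 encode subunits of the M-current that restrains neuronal firing. KCNQ5 had sums of 2 and 2 with 1 EV count in A, and KCNQ3 had a single count, in the EV library and the sum of A. KCNV2, which encodes a modifier subunit known from photoreceptors, had a sum of 4 in A and 0 in B. KCNA3, the channel gene of T cells, had sums of 2 and 1 and no EV count. KCNG1, a modifier subunit gene, and KCNH1, an ether-a-go-go channel gene, each had a sum of 2 in A and 0 in B, with 1 and 2 counts in the EV library of A. All of these values rest on few counts.

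Inward rectifier and background potassium channel genes help to hold the resting potential. Of 14 inward rectifier genes (KCNJ) only KCNJ15 had a count, 1 in the EV library and 1 in the sum of B. Of 14 background channel genes (KCNK) 3 had a summed count in each animal, 21.4%, beside 18.8% of all protein-coding named genes in A and 14.9% in B. KCNK9, of an acid-sensitive channel, had sums of 5 and 2 and 1 count in the EV library of A.

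Auxiliary and regulatory potassium channel genes had counts for 4 of 16 members. All 4 had a summed count in A (25%) and 2 in B (12.5%), beside 18.8% and 14.9% of the background genes. KCNAB2, the gene of a cytosolic beta subunit of voltage-gated potassium channels, had 2 counts in the EV library of A, 3 in that of B and 4 in each sum. With KCNT1 and CACNA1H it was one of the 3 members counted in both EV libraries. These 3 were 1.82% of the 165 (0.377% to 5.22%), beside 0.574% of the background genes. KCNE3, which encodes a small membrane subunit of epithelial potassium channels, had sums of 2 and 1.

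**Figure D3:**
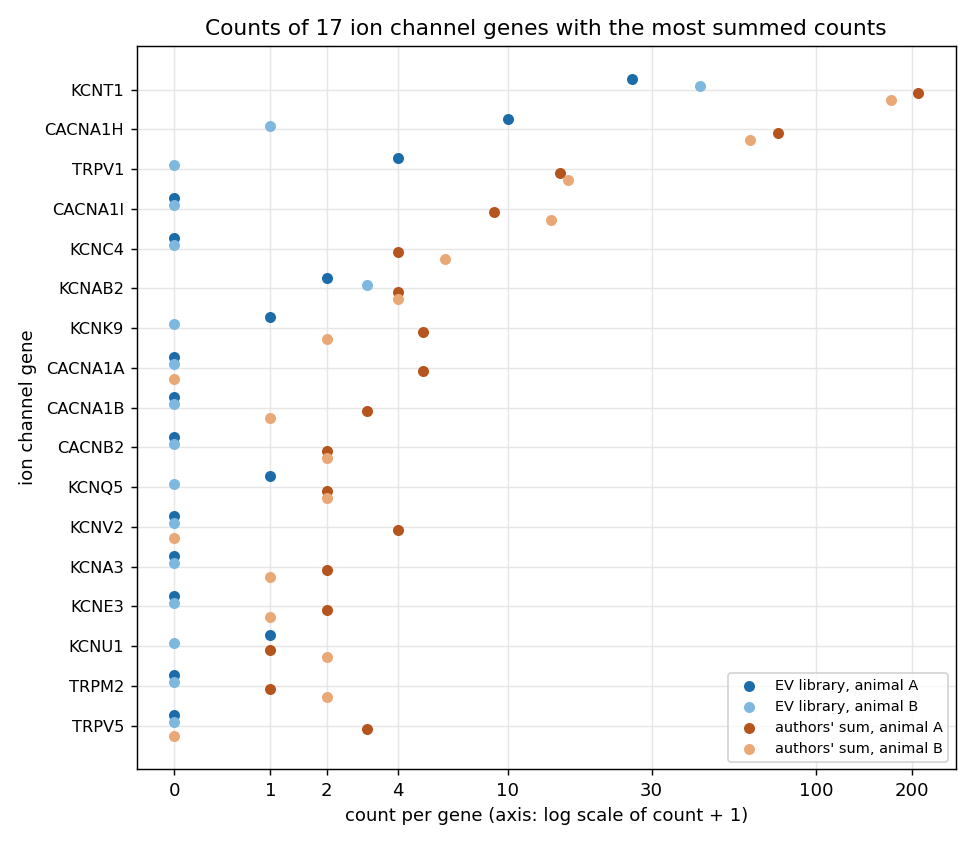
Counts (horizontal axis, log scale of count + 1) of 17 of the 20 ion channel genes with the most summed counts, in the EV library of each animal (blue) and in the authors' sums (orange). KCNT1 and CACNA1H stand apart on the right, with sums of 210 and 173 and of 76 and 62.

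Pore-forming calcium channel genes held the next most counts, 95 in the sum of A and 77 in that of B, from 6 and 3 of their 10 members. These were 60% and 30% of the 10, beside 18.8% and 14.9% of the background genes. CACNA1H encodes a T-type channel, which opens near the resting potential. CACNA1H (ENSMMUG00000014213) had 10 counts in the EV library of A, 1 in that of B, 76 in the sum of A and 62 in that of B. Its share of the sums was 0.121% in A (0.0954% to 0.151%) and 0.114% in B (0.0872% to 0.146%), a ratio of 1.06 (0.751 to 1.51). Another T-type gene, CACNA1I (ENSMMUG00000004878), had sums of 9 and 14 and no EV count, and the remaining one, CACNA1G, was at 0 in all 4 columns. T-type genes therefore held 85 of the 95 pore-forming calcium channel counts in A and 76 of the 77 in B. CACNA1A, of the P/Q-type channel at nerve terminals, had a sum of 5 in A and 0 in B. CACNA1B, of the N-type channel there, had sums of 3 and 1. CACNA1S, of the skeletal muscle channel, had a single count, in the EV library and the sum of A. The L-type gene CACNA1C of heart and vessel muscle was at 0 in all 4 columns.

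Auxiliary calcium channel genes had counts for 7 of 16 members, with 8 counts in the sum of A and 4 in that of B. The sums held a count for 6 of them in A (37.5%) and 3 in B (18.75%), beside 18.8% and 14.9% of the background genes. CACNB2, a beta subunit gene expressed in heart, had a sum of 2 in each animal. CACNA2D4, an alpha-2-delta subunit gene known from the retina, had a sum of 1 in each. CACNG8, a gamma subunit gene whose protein also binds glutamate receptors, had a sum of 2 in A and 0 in B, with 1 count in the EV library of A.

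The 13 sodium channel genes had no EV count, where only 4.17% (A) and 1.97% (B) of the background genes had one. Of the 9 pore-forming sodium channel genes 3 had a summed count in A (33.3%) and 1 in B (11.1%), beside 18.8% and 14.9% of the background genes. Of the 4 beta subunit genes 1 had a summed count in A (25%) and 2 in B (50%), beside the same background shares. Among them SCN3B had a sum of 1 in each animal. The pacemaker channel gene HCN4 had a sum of 1 in each animal and no EV count.

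Of the 21 transient receptor potential genes 4 had a count in any of the 4 columns (19.0%), beside 22.7% of the background genes. These 4 were in the TRPV and TRPM groups. TRPV1 encodes the heat- and capsaicin-gated channel of pain-sensing neurons. TRPV1 (ENSMMUG00000000711) had 4 counts in the EV library of A, 0 in that of B and sums of 15 and 16, with a ratio of shares of 0.814 in the sums (0.375 to 1.76). TRPV5, of the calcium entry channel of the kidney tubule, had a sum of 3 in A and 0 in B. TRPM2, of an oxidant-sensitive channel found in leukocytes, had sums of 1 and 2, and the other 7 TRPM genes were at 0. TRPA1 and all 6 TRPC genes were at 0 in all 4 columns. TRPC4AP, which matches the symbol rule but encodes a protein that binds a channel, had a sum of 2 in A and 0 in B. Of the 8 chloride channel and transporter genes 2 had a summed count in A (25%) and 1 in B (12.5%), beside 18.8% and 14.9% of the background genes. Among them CLCN1, of the skeletal muscle channel, had a sum of 1 in each animal.

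**Figure D4:**
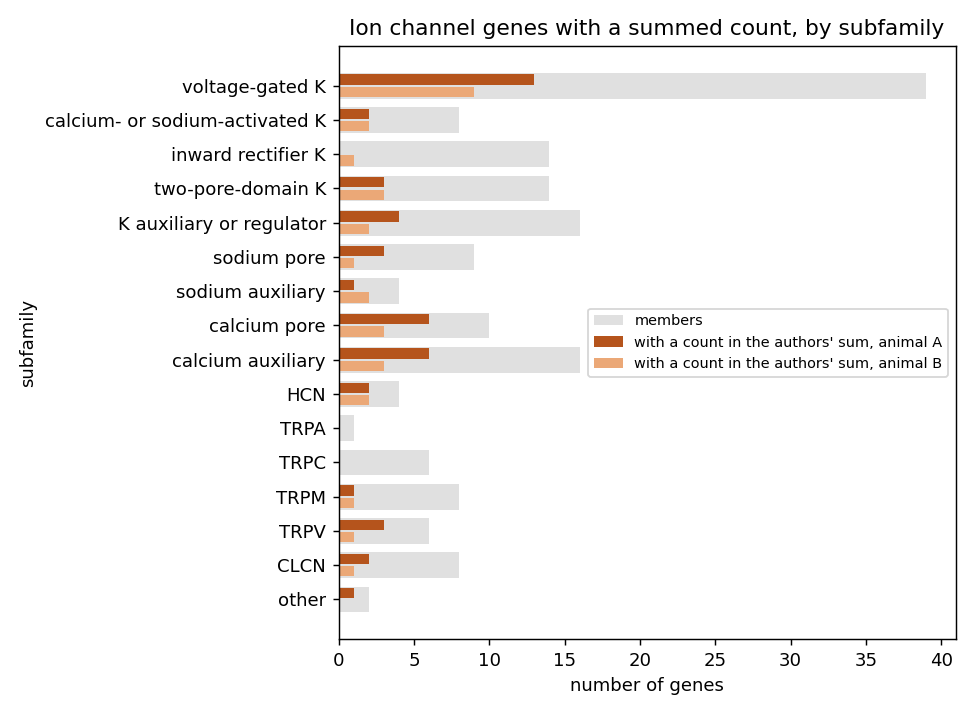
Number of genes (horizontal axis) in each ion channel subfamily (grey) and number with at least 1 count in the authors' sum of animal A (dark orange) and of animal B (light orange). Voltage-gated potassium channel genes have 13 and 9 of 39 and pore-forming calcium channel genes 6 and 3 of 10, while TRPA and TRPC genes have none. Over the background genes the share with such a count is 18.8% in A and 14.9% in B.

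Pore-forming genes held nearly all counts, 378 of 397 in the sum of A and 299 of 310 in that of B. Most of these counts were those of KCNT1 (210 and 173) and CACNA1H (76 and 62). The pore-forming genes were 127 of the 165 members, and 35 of them had a summed count in A (27.6%) and 24 in B (18.9%). Of the 36 auxiliary and regulatory genes 11 had a summed count in A and 7 in B. The shares over the background genes were 18.8% and 14.9%. Over all 4 columns 29.9% of the pore-forming genes and 36.1% of the auxiliary and regulatory ones had a count, beside 22.7% of the background genes.

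The EV counts were compared with the sums of the same animal. For all members they came to 12.8% of the summed count in A (9.72% to 16.5%) and 15.8% in B (11.9% to 20.4%), beside 13.9% (13.5% to 14.2%) and 2.96% (2.78% to 3.16%) for the background genes. The higher EV part of the members in B rested on KCNT1. Its EV count was 12.4% of its sum in A (8.25% to 17.6%) and 24.9% in B (18.6% to 32.0%). Without it the other members had 13.4% in A (8.84% to 19.1%) and 4.38% in B (1.62% to 9.29%). Without KCNT1 the members' share of the EV libraries was 0.240% in A and 0.211% in B, a ratio of 1.14 (0.456 to 3.39) in place of 0.285 (0.188 to 0.430) with it. No member had an EV count above its sum, but 16 background genes had one in A and 11 in B. The sums therefore do not simply contain the EV counts, and EV parts of a sum and sums less the EV count are to be read with that limit.

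With the EV count taken off, the sums left 346 counts of members in A and 261 in B. KCNT1 had 184 and 130 left, CACNA1H 66 and 61, TRPV1 11 and 16, and CACNA1I 9 and 14. Of the 48 members with a remaining count, 27 had more in A (56.2%), 10 had more in B (20.8%) and 11 had the same number in both (22.9%), among them CACNB2 with 2. Of the 3348 such background genes 44.7% had more in A, 24.0% more in B and 31.3% the same number. These 11 were 44.0% of the 25 members with a remaining count in both animals, and over the background genes the same share was 58.2%. Equal values were 1 count in 9 of the 11. Which libraries were summed was not stated and whether the sums share counts was not tested, so like values in both animals may not be independent.

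**Figure D5:**
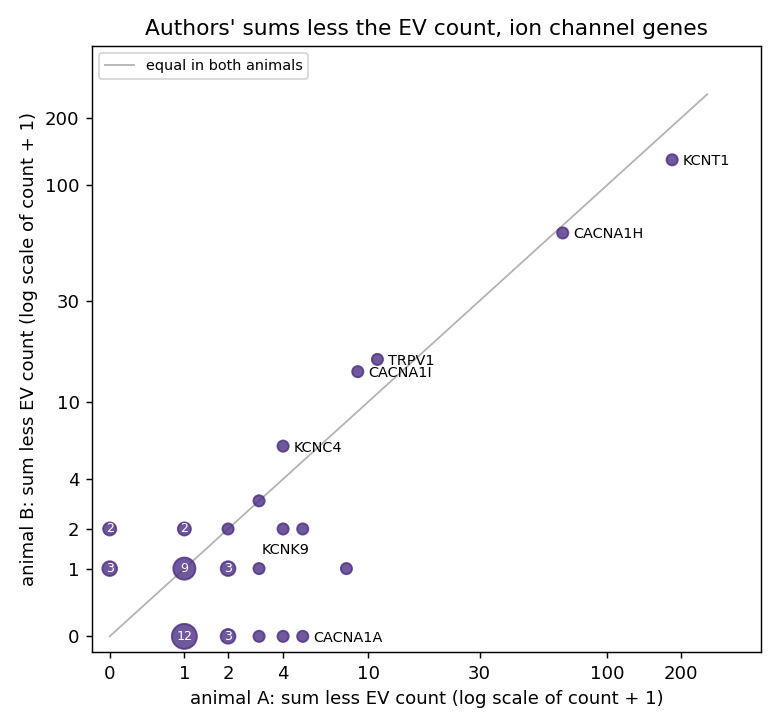
The authors' sum less the EV count in animal A (horizontal axis) and animal B (vertical axis), both on a log scale of count + 1, for the 48 ion channel genes with such a count; a number inside a point gives how many genes share it, and the grey line marks equal values. KCNT1 (184 and 130) and CACNA1H (66 and 61) lie far from the rest, and 11 genes lie on the line.

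In the sums, none of the 4 members with at least 10 counts in either column, KCNT1, CACNA1H, TRPV1 and CACNA1I, had a ratio of shares whose interval left out 1. Of the 277 background genes of that kind 27.4% had a higher share in A and 17.7% a higher share in B. The members together had a ratio of A over B of 1.11 (0.956 to 1.29) by shares of the total and 1.25 (1.07 to 1.45) with TMM scaling, where the interval left out 1. DESeq2's size factors were 1 for both sums, so they gave the ratio of the unscaled counts, 1.28 (1.10 to 1.49).

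Genes that lie next to the leading members were also read, since overlapping genes can share reads. In RefSeq's annotation of the T2T-MMU8v2.0 assembly, which may differ from the authors', the gene model of PIERCE1 overlaps that of KCNT1, TPSG1 overlaps CACNA1H and SHPK overlaps TRPV1. PIERCE1 was at 0 in all 4 columns, TPSG1 had a sum of 0 in A and 1 in B, and SHPK had sums of 3 and 1, each with 0 EV counts. CAMSAP1, the neighbour of KCNT1 without overlap, had sums of 131 in A and 8 in B and no EV count.

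Channel genes outside these families were read from a list of 66, of which 64 matched a symbol. Of these 15 had a summed count in A (23.4%) and 16 in B (25%), beside 18.8% and 14.9% of the background genes. In the EV libraries 5 of them had a count in A (7.81%) and 4 in B (6.25%), beside 4.17% and 1.97%. The leading ones were TMEM175, a lysosomal potassium channel gene, with sums of 157 and 17, RYR2, the calcium release channel gene of heart muscle, with 33 and 25, and OTOP2, a proton channel gene, with 17 and 23. BEST4, a bestrophin anion channel gene, had 10 and 16, ASIC4, of the acid-sensing channel family, 11 and 7, and ORAI2, a store-operated calcium channel gene, 5 and 7. In the EV libraries of A and B, TMEM175 had 2 and 1 counts, RYR2 2 and 0, ASIC4 3 and 3 and ORAI2 1 and 0, while OTOP2 and BEST4 had none. Of 34 genes for proteins that bind or anchor channels, 12 had a summed count in A (35.3%) and 5 in B (14.7%), with 19 and 8 counts in all. The share in B was near the 14.9% of the background genes, and that in A stood beside 18.8%.

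Markers of the excitable tissues in which many members are best known were read beside them. Of 6 neuron markers, RBFOX3 had sums of 3 and 1 and SYN1 of 0 and 1, with 0 EV counts, and the other 4, SNAP25 and SYT1 among them, were at 0 in all 4 columns. Of 6 heart and skeletal muscle markers with a symbol only TTN, the gene of the giant muscle protein titin, had counts, with 4 and 0 in the EV libraries and sums of 13 and 8, and the other 5 were at 0. The share with a summed count was 16.7% in A and 33.3% in B for the neuron markers and 16.7% in each for the muscle markers, from 1 or 2 genes each, beside 18.8% and 14.9% of the background genes. The part of any such tissue in the counts of the members was not tested.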

How the data were processed

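RNA was extracted from plasma fractions of 2 animals with a Norgen kit, and QIAGEN's UPXome kit made the libraries, per the labels' protocols. The submitters' processing notes name STAR as the aligner; for its version, the genome build, the annotation, the counting step and molecular identifiers, the sources used here give nothing. The authors deposited raw counts per Ensembl gene for the EV libraries and summed counts per animal. Genes absent from the EV table were taken as 0. The authors' library statistics gave 913091 to 3612560 input reads as counts, of which 16.35% to 24.26% were uniquely mapped, as a percent. The EV library of A had 2615337 input reads (24.26% uniquely mapped). That of B had 913091 (23.38%), the fewest of the 6 libraries. Their total gene counts were 10397 and 2842, far below the number of uniquely mapped reads. The reason was not tested, as the counting step is not described. Separate gene counts for the lipoprotein and protein fractions were not analysed here, so fractions were not compared.

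Symbols came from a table of Ensembl identifiers and matched 24186 of 35432 features; which symbols are protein-coding came from RefSeq's annotation of T2T-MMU8v2.0. Samples were grouped by the fraction and animal in their titles. Nothing was tested between groups. Detection was a count of at least 1. Shares have 95% Clopper-Pearson intervals and ratios of shares exact conditional binomial intervals (Python 3.11.15, scipy 1.17.1). Scaling used edgeR 4.0.16 and DESeq2 1.42.0. In a check of the ratio interval on made-up counts for 401 genes of the summed columns, 392 intervals held the true ratio. These counts were drawn from the Poisson model that the interval assumes. The check thus tests the calculation only, and not PCR copies, counts shared between sums or the EV libraries. The 32 named members were the 25 with the most summed counts, those with an EV count and the leader of each subfamily, and 6 other channel genes by summed count. Of the 32, 4 are not reported here. Members at 0, neighbouring genes and list markers named beside them were chosen after their values were seen. The members and lists were chosen with earlier results of these data known.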

Additional observations from a re-analysis of the deposited data

How the results depend on the processing

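Detection moved with the count minimum. At minima of 2, 5 and 10 counts the share of members detected was 3.03%, 1.21% and 1.21% in the EV library of A, 14.5%, 4.85% and 1.82% in the sum of A, and 8.48%, 3.03% and 2.42% in the sum of B, and in the EV library of B it was 1.21%, 0.606% and 0.606%. The members' lead over the background genes in the sum of A was 9.64 percentage points at 1 count, 2.0 at 5 and 0.412 at 10. In all 4 columns it kept its sign with every background and minimum tried. The wider backgrounds had lower detection in each column, as in the sum of A (17.7% and 13.3% beside 18.8%), so they could only widen the lead. The minima reuse the same genes, and at 10 counts the members' interval held the background value in all 4 columns. The members' share of the total count was 0.982%, 5.36%, 1.08% and 1.02% (EV A, EV B, sum A, sum B) when taken of named genes alone. Without KCNT1 it was 0.240%, 0.211%, 0.298% and 0.251%. With the 10 leading features left out of the total only, it was 2.14%, 7.07%, 1.97% and 2.24%. KCNT1, the 4th background gene by count in the EV library of B, stayed in the members' count there. These last values are therefore too high wherever KCNT1 was among the 10 features left out. The ratio of the members' EV shares, A over B, was 0.285 by totals, 0.781 with TMM and 1.04, the other direction, with DESeq2's size factors, which were 1 in both libraries and so left the difference in depth in place. For KCNT1 alone it was 0.605 with those size factors. In the sums the members' ratio was 1.25 with TMM and 1.28 with size factors, which were 1 there too. Leaving out an animal gave a mean EV detection of 3.03% to 7.27% and a mean EV share of 0.491% to 1.72%. Thinned to the total of B, the EV library of A had 7 members detected (4.24%), beside 1.77% of the background genes. The alternatives that needed protein lengths were not run. No paired analysis was possible because no result came from a test between groups. Background choices and the scaling of KCNT1 were chosen after seeing the data. Depth limits these values, as 32 of the 52 members with a summed count had 1 or 2 over both sums.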
